A study of Homo sapiens with 6 samples.

Results

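The genes described here handle vitamin A and its active product, retinoic acid. They are the cytochromes CYP27C1 and CYP26A1, the dehydrogenases RDH10 and DHRS3, the binding proteins CRABP1 and CRABP2, and the retinoic acid receptors RARA, RARB and RARG. The set was chosen by gene symbol with the comparison of CD44-positive with CD44-negative cells in view, in which CYP27C1 had been among the genes with the smallest unadjusted p on the lower side. That contrast is therefore described for these genes without a test. Of the 9 genes, 8 had probe sets in the platform annotation, 21 in all, out of 54675 on the array. No probe set was named for CRABP1, which was not analysed here. Of the 21 probe sets, 14 had a mean over all arrays above the dim limit of 5.12 (log2 intensity), the 30th percentile of 19775 genes. Each gene was read from its brightest probe set. On that basis 7 of the 8 genes passed the limit, among 13842 genes tested, and CYP26A1 did not.

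COLO-320DM is an established human colorectal cancer cell line. Its cells were sorted by CD44, a surface hyaluronan receptor used as a marker of colorectal cancer stem cells, and total RNA was hybridised to Affymetrix arrays. The 6 arrays comprised 3 of CD44-positive and 3 of CD44-negative cells, all untreated, and each group carried the numbers 01, 02 and 03. The labels did not say that the numbers were separate cultures, so p-values cover only the spread among these arrays, part or all of which may be technical. A single line was used, so the groups differ only by the sort gate as far as the labels state. Array medians lay between 44.9 and 46.5 intensity units, and the number of arrays limits the precision. CD44 itself stood at 7.86, 8.12 and 7.11 in the CD44-positive and at 5.41, 5.29 and 4.99 in the CD44-negative arrays (log2, 01 to 03). Of 6 epithelial markers KRT8, KRT18, CDX2 and VIL1 were above the dim limit, while EPCAM and CDH1 were under it, and their summed level ranged from 12.06 to 12.24 in the CD44-positive and from 12.10 to 12.37 in the CD44-negative arrays. Summed neuroendocrine markers (1 of 4 dim) ranged from 7.26 to 7.81 and from 7.08 to 7.65. Summed fibroblast markers, mostly COL3A1, ranged from 10.49 to 11.82 in the CD44-positive and from 10.12 to 11.13 in the CD44-negative arrays. Of these 7 markers LUM (4.55 and 2.53) and FAP (4.09 and 3.92) were dim. The other 5 went both ways. COL3A1 (0.78) and COL1A2 (0.31) had the higher mean in the CD44-positive arrays, while COL1A1 (-0.23), PDGFRB (-0.13) and DCN (-0.036) had the lower. Summed leukocyte markers (3 of 5 measured dim) ranged from 8.02 to 8.03 and from 8.01 to 8.13, and endothelial markers (2 of 4 dim) from 7.10 to 7.31 and from 7.15 to 7.22. The part of these cell types in the results was not tested.

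Cells take up retinol, oxidise it in successive steps to retinaldehyde and retinoic acid, and clear retinoic acid with cytochromes of the CYP26 family. Retinoic acid binds RAR proteins, which pair with RXR proteins on DNA at direct repeats of a short hexamer and switch on genes that include RARB, DHRS3 and CYP26A1 themselves. In the colon this pathway is known for its role in epithelial differentiation. In bulk samples, fewer cells expressing a gene and less RNA per cell cannot be told apart.

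CYP27C1, a cytochrome that desaturates retinoids and so makes vitamin A2, was the member with the largest difference between the sorts. Its only probe set, 1568868_at, read 6.69, 6.50 and 6.45 in CD44-positive arrays 01, 02 and 03, and 7.25, 6.91 and 7.22 in the CD44-negative arrays (log2 intensity). Every CD44-positive array lay below every CD44-negative array. The means were 6.55 ± 0.12 and 7.13 ± 0.19 (log2, SD, n = 3), a difference of -0.58 ± 0.12 (SE), which is 1.49-fold lower in the CD44-positive cells. The pairs of same-numbered arrays differed by -0.56, -0.41 and -0.77. The groups did not overlap with the CD44-positive side lower in 360 of the 13842 genes (2.6%), and without overlap in either direction in 751 (5.43%). CYP27C1 was picked on this contrast, so these shares are given only as the setting in which its values stand. Leaving out 1 array at a time moved the difference between -0.69 and -0.52.

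The pattern of CYP27C1 over the 6 arrays was most closely followed by SOX21-AS1, TARS3 and DACH2. The measure was the root mean square distance between log2 values centred on each gene's mean, which was 0.091, 0.11 and 0.12 for these genes against a median of 0.34 over all genes tested. SOX21-AS1, an antisense transcript next to the neural factor gene SOX21, differed by -0.45 between the sorts, TARS3, a threonyl-tRNA synthetase, by -0.43 and DACH2, a developmental transcription factor, by -0.35. All 3, like CYP27C1, had no overlap between the groups, and they were found by this likeness, so it is a description. The tested genes nearest to CYP27C1 on the chromosome differed by between -0.18 and 0.12, and their groups overlapped. ERCC3, a DNA repair helicase, differed by -0.026 ± 0.091 (SE) and BIN1, a membrane-shaping protein, by 0.12 ± 0.10, both with limma adjusted p = 1.00. MAP3K2, a kinase, and the more distant TSN and NIFK differed by 0.059, 0.023 and -0.018, and MAP3K2-DT, the divergent transcript of MAP3K2, by -0.18 (adjusted p = 1.00 each).

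CYP26A1, the enzyme that clears retinoic acid and is itself strongly induced by it, was dim on all arrays. Its probe set read 4.51, 4.38 and 4.46 in the CD44-positive and 4.58, 4.73 and 4.58 in the CD44-negative arrays (log2 intensity). The groups did not overlap, but all 6 values lay under the dim limit, so the difference of -0.18 has no dependable size. Of its neighbours, EXOC6, a subunit of the exocyst, differed by -0.16 ± 0.098 (SE), and the remaining 5 tested (KIF11, IDE, CEP55, FRA10AC1 and SLC35G1) by between -0.16 and -0.011, all with limma adjusted p = 1.00.

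**Figure D1:**
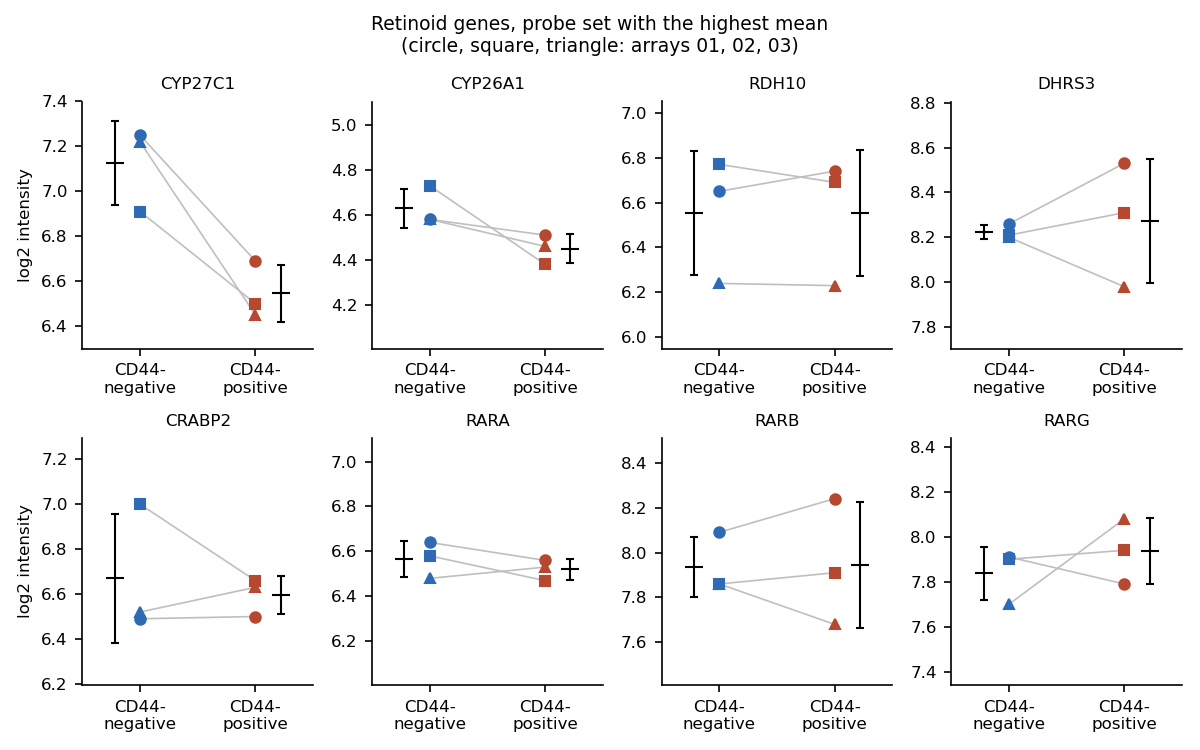
Log2 intensity of the 8 measured genes on the brightest probe set of each, by array. Blue marks are CD44-negative and red marks CD44-positive arrays, grey lines join arrays of the same number, black bars give the mean and SD of 3 arrays, shapes give the array number, and every panel spans the same range of log2 units. The red marks of CYP27C1 (6.45 to 6.69) all lie below the blue marks (6.91 to 7.25), and all CYP26A1 marks (4.38 to 4.73) are under the dim limit of 5.12, which no panel reaches.

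RDH10, which carries out the rate-limiting oxidation of retinol to retinaldehyde, did not separate the sorts. Probe set 226021_at read 6.74, 6.69 and 6.23 in the CD44-positive and 6.65, 6.77 and 6.24 in the CD44-negative arrays. Both groups had a mean of 6.55 ± 0.28 (log2, SD, n = 3), a difference of 0.0014 with a 95% interval from -0.41 to 0.41. With the replicate number as a block in the model the interval was -0.16 to 0.17. Its other probe sets differed by -0.054 (227467_at), -0.20 (1552378_s_at) and, dim on all arrays, -0.070 (1552379_at). The low values of both groups came from the arrays numbered 03.

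DHRS3, which reduces retinaldehyde back to retinol, read 8.53, 8.31 and 7.98 in the CD44-positive and 8.26, 8.21 and 8.20 in the CD44-negative arrays. The CD44-negative arrays lay inside the range of the CD44-positive ones. The difference was 0.047 (95% interval -0.27 to 0.37), and the SD was 0.28 in the CD44-positive against 0.03 in the CD44-negative arrays (n = 3 each). Without CD44-positive array 01 the difference turned negative (-0.082).

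CRABP2, the binding protein that carries retinoic acid to its nuclear receptors, read 6.50, 6.66 and 6.63 in the CD44-positive and 6.49, 7.00 and 6.52 in the CD44-negative arrays. CD44-negative array 02 stood above the other 5, which lay between 6.49 and 6.66. The difference was -0.073 (95% interval -0.41 to 0.26), and it was 0.093 without CD44-negative array 02.

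The 3 receptors were all measured above the dim limit, and none separated the sorts on its main probe set. RARA, the receptor alpha, read 6.56, 6.47 and 6.53 against 6.64, 6.58 and 6.48, a difference of -0.051 (95% interval -0.25 to 0.15). RARB, the receptor beta, read 8.24, 7.91 and 7.68 against 8.09, 7.86 and 7.86, a difference of 0.010 (-0.33 to 0.35). RARG, the receptor gamma, read 7.79, 7.94 and 8.08 against 7.91, 7.90 and 7.70, a difference of 0.10 (-0.15 to 0.35). In all 3 the groups overlapped. Apart from the block interval of RDH10, the intervals given for the members come from the model without the block. All of these intervals show the spread of the arrays and are no test of this contrast.

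The other probe sets of the receptors gave differences of up to 0.14 in size. RARA had 5, of which 4 were above the dim limit, with differences from -0.079 (203749_s_at) to 0.086 (211605_s_at), and the fifth, 1565358_at, was dim and differed by -0.14. RARB had 5, of which 205080_at and 208530_s_at were above the limit, at 0.010 and 0.11. RARG had 3, of which 204189_at and 204188_s_at were above it, at 0.10 and 0.072. On 204188_s_at the RARG values were 7.10, 7.11 and 7.11 in the CD44-positive and 7.02, 7.07 and 7.03 in the CD44-negative arrays, so that the groups did not overlap by a margin of hundredths of a log2 unit. The suffixes _s_at and _x_at mark probe sets that can hybridise to more than 1 transcript. Over all 21 probe sets, 10 had the CD44-positive mean above and 11 below the CD44-negative mean, from -0.58 to 0.11.

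**Figure D2:**
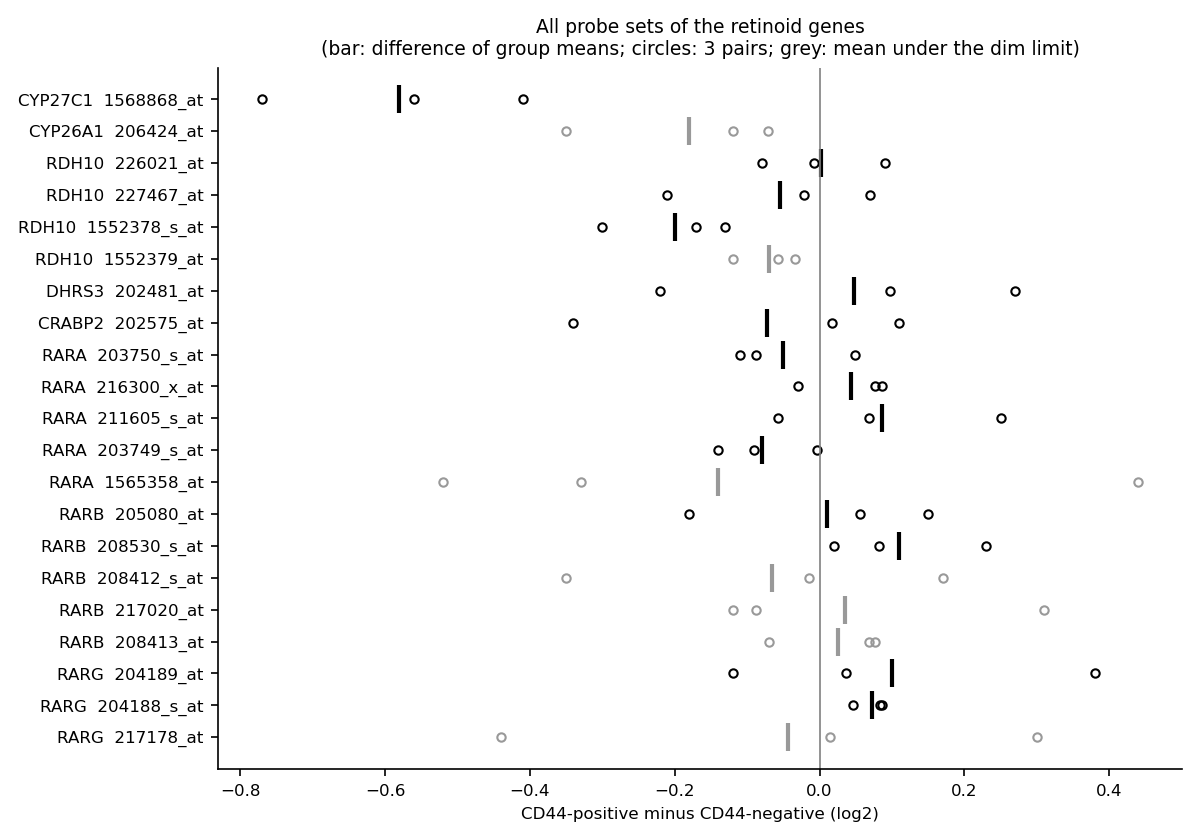
Difference between CD44-positive and CD44-negative arrays (log2) for all 21 probe sets of the 8 genes. Vertical bars are the differences of group means, circles the 3 pairs of same-numbered arrays, and grey marks probe sets with a mean under the dim limit of 5.12. CYP27C1 at -0.58 stands apart, and the other 20 lie between -0.20 and 0.11.

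Sequence upstream of the start sites is shown for RARB and CYP26A1, the members with a match to the DR5 motif in a promoter window, and for CYP27C1, the member with the largest difference. DR5, a kind of repeat that RAR proteins are known to bind, was searched as a pair of NGNTCA hexamers in the same direction with 5 bases between, NGNTCANNNNNNGNTCA, on both strands. It was sought in the RefSeq promoter windows of 300 bases (250 before and 50 after each start, GRCh38.p14), 17 of which belonged to 8 of the 9 genes. DR5 was found in 2 of the 17, in 1 of 4 windows of RARB and 1 of 2 of CYP26A1, and in 254 of all 35116 windows (0.72%). The related repeats with 1 base between (NGNTCANNGNTCA, 0.77% of windows) or with 2 (NGNTCANNNGNTCA, 0.67%) were in none of the 17. Capitals mark DR5, and each stretch is written 5′ to 3′ along the gene's strand. The RARB stretch is the 120 bases before a start (chr3:25428143-25428262, plus strand), with DR5 from 53 to 37 bases before it. The CYP26A1 stretch is 30 bases (chr10:93073797-93073826, plus strand), with DR5 on the opposite strand from 90 to 74 bases before a start. The CYP27C1 stretch is the 250 bases before a start (chr2:127220300-127220549, minus strand), with no DR5 and 1 single hexamer match, the median number over all windows.
RARB: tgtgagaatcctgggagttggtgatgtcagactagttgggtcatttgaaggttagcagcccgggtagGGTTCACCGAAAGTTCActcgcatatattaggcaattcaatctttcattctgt
CYP26A1: taaagaTGAACTTTGGGTGAACTaattgtc
CYP27C1: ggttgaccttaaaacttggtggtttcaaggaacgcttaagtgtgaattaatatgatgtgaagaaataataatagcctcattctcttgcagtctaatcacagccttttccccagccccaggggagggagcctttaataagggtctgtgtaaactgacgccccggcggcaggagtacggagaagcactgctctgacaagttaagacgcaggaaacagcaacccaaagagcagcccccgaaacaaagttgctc

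Genes with DR5 in a promoter window were read as a group, which includes RARB and CYP26A1 themselves and also STRA6, described below. Of 246 such genes 83 were tested, with a median difference of 0.0026 between the sorts, against -0.0025 over all genes tested. The CD44-positive mean was higher in 43 and lower in 40, and limma called none with or without the replicate number as a block. A match of these letters is not evidence that a receptor binds there.

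The other genes of the pathway were read from lists of 60 symbols, of which 49 had a probe set of their own and 35 were tested. None passed limma's test between the sorts at an adjusted p under 0.05, without or with the replicate number as a block. Over all 13842 genes 0 (0%) passed without the block, where 273 had an unadjusted p under 0.05, and 8 (0.0578%) passed with it. CD44, the gene of the sort, differed by 2.47, yet it passed only with the block (limma adjusted p = 0.106 without and 0.00176 with it). Of the 35 pathway genes 0 had an unadjusted p under 0.05 without and 4 with the block, where 1037 of all 13842 genes did. The CD44-positive mean was higher in 12 and lower in 23 of the 35, with a median difference of -0.013, and the groups did not overlap in 1. Among all 13842 genes it was higher in 6767 and lower in 7075, and the groups did not overlap in 751 (5.43%).

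Among the genes of retinol uptake and storage, 4 were tested and all 4 had the lower mean in the CD44-positive cells, with a median of -0.077. The smallest of these differences was -0.0026. STRA6, the cell surface receptor for retinol bound to its carrier, read 5.48, 5.52 and 5.86 against 5.84, 5.97 and 5.79, a difference of -0.25 (95% interval -0.53 to 0.029, adjusted p = 1.00). Its other probe sets, 1569334_at and 1569335_a_at, were dim and differed by 0.023 and 0.10. DGAT1, which can esterify retinol, differed by -0.079 and the retinol carrier partner TTR by -0.075 (adjusted p = 1.00 each). LRAT, the main retinol esterifying enzyme, was dim at 3.06 and 2.87.

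Of the synthesis enzymes 9 were tested, 3 with a higher and 6 with a lower CD44-positive mean and a median of -0.030. ALDH1A2, which oxidises retinaldehyde to retinoic acid, read 8.85, 8.33 and 8.78 in the CD44-positive and 9.78, 8.51 and 9.16 in the CD44-negative arrays. It had the lower value in the CD44-positive array of all 3 pairs, by -0.93, -0.18 and -0.39, but the groups overlapped. The means differed by -0.50 ± 0.29 (SE), with limma adjusted p = 1.00 without and 0.384 with the block. The 95% interval ran from -1.17 to 0.18 without and from -0.81 to -0.18 with the block. Its second probe set, 207015_s_at, differed by -0.28. ALDH1A1, an enzyme of the same step, stood at 11.69 ± 0.38 and 11.52 ± 0.39 (log2, SD, n = 3), a difference of 0.17 (95% interval -0.37 to 0.71). It had the higher value in the CD44-positive array of all 3 pairs, by 0.19, 0.18 and 0.13, and with the block the interval was 0.012 to 0.32 and the limma adjusted p was 0.621. ALDH1A3, of the same step, was dim at 3.86 and 3.71. RDH12, a retinal reductase, was the pathway gene without overlap, at 5.20, 5.55 and 5.19 against 5.09, 5.16 and 5.07, but its CD44-negative mean of 5.11 lay under the dim limit. The limma adjusted p of RDH12 was 1.00, and the block gave 0.621 with an interval of 0.016 to 0.39. RDH5, a retinol dehydrogenase, differed by -0.17 (95% interval -0.87 to 0.53 without and -0.43 to 0.091 with the block).

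The list of breakdown genes and CYP27 relatives had 3 tested genes, of which only CYP26B1 acts in retinoic acid breakdown. All 3 had the lower mean in the CD44-positive cells, with a median of -0.054. Over all 13842 genes tested the mean was lower in 7075. CYP26B1, which clears retinoic acid as CYP26A1 does, read 6.82, 5.77 and 7.01 against 7.56, 5.87 and 7.24, with pair differences of -0.75, -0.096 and -0.24. Its difference of -0.36 had a 95% interval from -1.43 to 0.71 without and from -0.65 to -0.072 with the block, and an adjusted p of 1.00 and 0.543. Its second probe set, 234721_s_at, differed by -0.0022. CYP27A1 and CYP27B1, relatives of CYP27C1 that hydroxylate sterols and vitamin D, differed by -0.032 (95% interval -0.23 to 0.17) and -0.054 (-0.60 to 0.49). With the block the CYP27B1 interval was -0.25 to 0.14. CYP26C1 had no probe set of its own.

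Receptor partners and cofactors numbered 10 tested genes, 4 with a higher and 6 with a lower CD44-positive mean and a median of -0.0053. RXRA and RXRB, which pair with the RAR proteins, differed by 0.11 (95% interval -0.094 to 0.32) and 0.031 (-0.16 to 0.22), and RXRG was dim. On their other probe sets RXRA differed by -0.034 and RXRB by 0.050 and -0.056. NCOA1, a coactivator, differed by 0.19 and FABP5, a binding protein that carries retinoic acid to PPARD, by -0.13 (adjusted p = 1.00 each). The other NCOA1 probe sets differed by between 0.0037 and 0.17. Genes that retinoic acid is known to induce numbered 9 tested, 5 higher and 4 lower, with a median of 0.0090. HOXD4 and HOXB1, developmental transcription factors, differed by 0.14 (95% interval -0.93 to 1.20) and 0.11 (-0.15 to 0.38), and NR2F1, an orphan nuclear receptor, by -0.12 (-0.73 to 0.49). With the block the HOXD4 interval was -0.065 to 0.34. The second probe set of HOXD4 differed by 0.15 and that of HOXB1, which was dim, by -0.053.

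**Figure D3:**
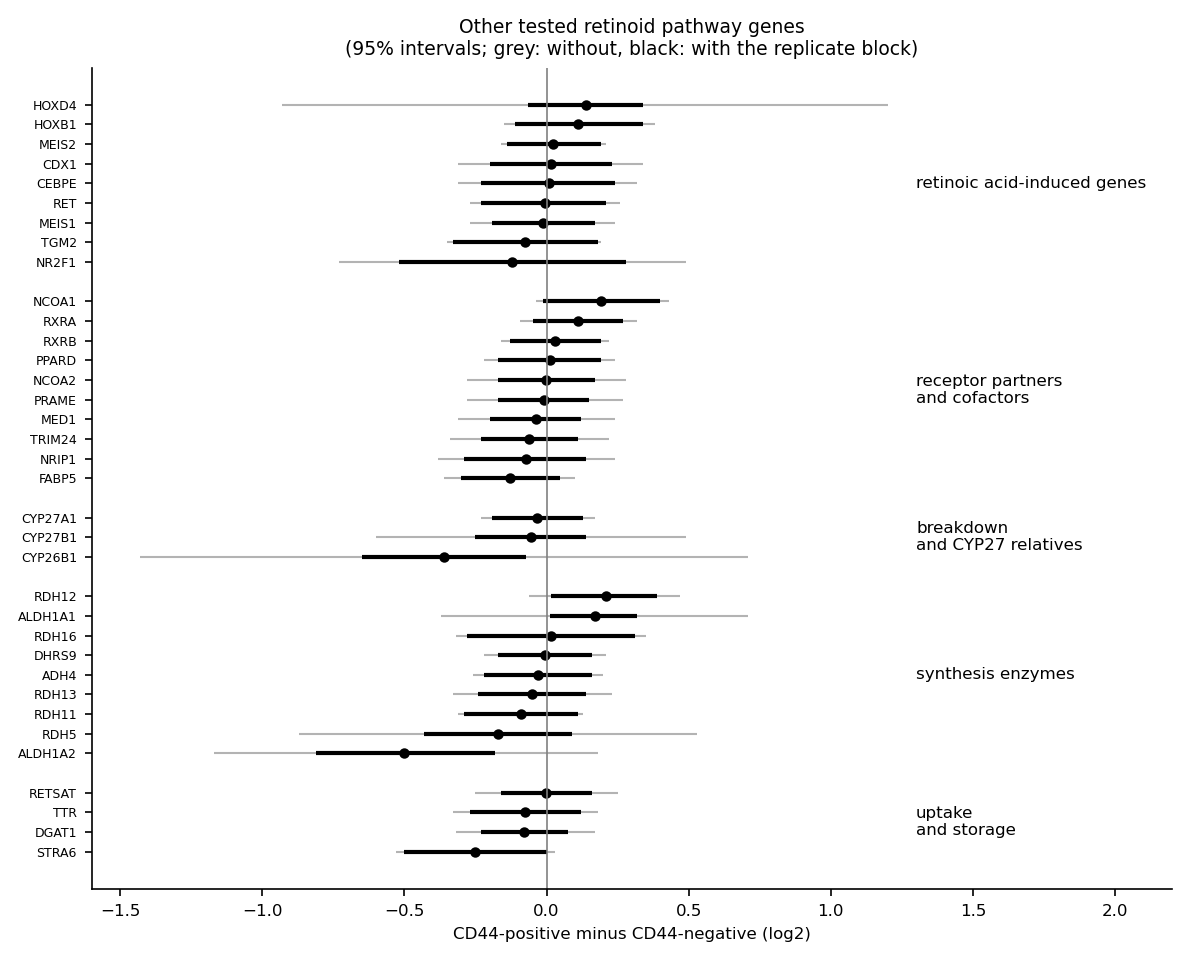
Difference between CD44-positive and CD44-negative arrays (log2) for the 35 other pathway genes tested, by list. Points are differences of group means, grey lines 95% intervals of limma without and black lines with the replicate number as a block. ALDH1A2 at -0.50 and CYP26B1 at -0.36 lie farthest to the left, and no gene passed the adjusted test.

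The genes were also read by the numbers 01, 02 and 03. Over all genes tested the median span between the 3 pair means was 0.21. The median absolute difference between the sorts was 0.06. These measures are unlike, since a span of 3 means tends to exceed a difference of 2. Spans by number were common over the array and not particular to these genes. A limma F test of the replicate number, with the CD44 group in the model, does not use the contrast on which the set was chosen. It called 1430 of the 13842 genes (10.3%) at an adjusted p under 0.05. Of the 7 tested members it called 1, RDH10 (adjusted p = 0.0253). Both RDH10 arrays numbered 03, at 6.23 and 6.24, lay below the other 4, which ranged from 6.65 to 6.77, and the pair means were 6.69, 6.73 and 6.24. The arrays numbered 03 had the lowest pair mean in all 4 RDH10 probe sets, and also in all 5 of RARA. On RARA 203750_s_at and 216300_x_at the margin was slight, at 6.51 and 6.29 for 03 against 6.52 and 6.3 for 02. RDH10 1552379_at and RARA 1565358_at were dim. Over all genes tested number 03 was the lowest in 5965, 02 in 4399 and 01 in 3478. When the F test was run on every probe set, the RDH10 probe sets 227467_at and 1552378_s_at did not pass (adjusted p = 0.0912 and 0.162). No RARA probe set in that run passed the F test (adjusted p = 0.11 to 0.767). Leaving out CD44-positive array 03 raised the adjusted p of RDH10 to 0.0575. Leaving out CD44-negative array 02 raised it to 0.0531, so RDH10 passed in neither case. What a number stands for was not stated in the labels.

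The other members did not pass this test. RARB was nearest, with pair means of 8.16, 7.88 and 7.77 (adjusted p = 0.0821 in the limma F test), and CRABP2 had 6.49, 6.83 and 6.57 (0.165). CYP27C1 had pair means of 6.97, 6.70 and 6.84 (0.231) and DHRS3 8.40, 8.26 and 8.09 (0.237). RARA and RARG spanned 0.092 and 0.068 between pair means on their main probe sets, against a median of 0.21 over all genes tested. The other RARA probe sets above the dim limit spanned 0.34 (211605_s_at), 0.31 (203749_s_at) and 0.078 (216300_x_at). Without CD44-negative array 03 the test called DHRS3 (0.0419) and RARB (0.0253) as well.

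**Figure D4:**
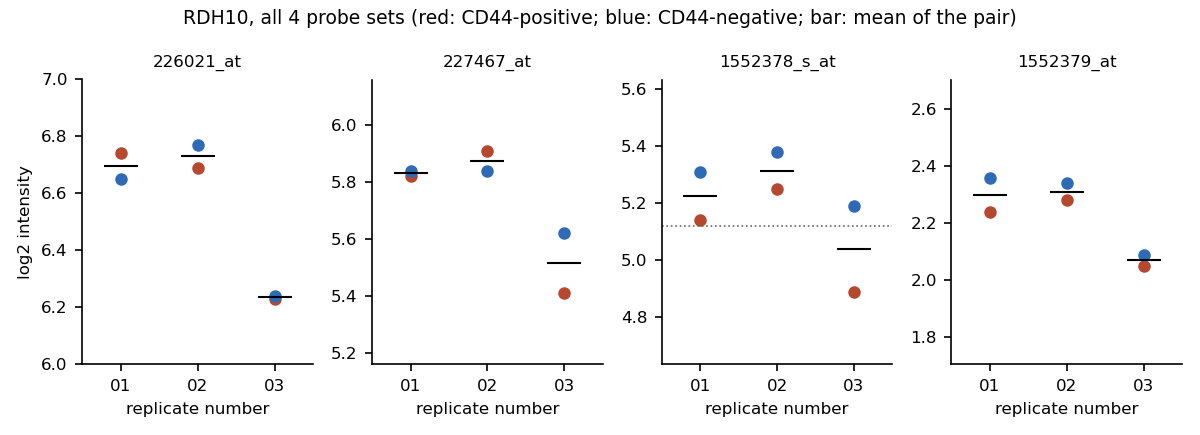
Log2 intensity of the 4 RDH10 probe sets by replicate number. Red points are CD44-positive and blue points CD44-negative arrays, black bars the mean of each pair, the dotted line, where it falls in a panel's range, is the dim limit of 5.12, and every panel spans the same range. In each panel the mean of the arrays numbered 03 is the lowest, and on 226021_at it is 6.24 against 6.69 and 6.73.

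The same F test called 6 of the 35 other pathway genes, beside the 10.3% over all genes. CYP26B1 had pair means of 7.19, 5.82 and 7.12 (adjusted p = 0.00735), so that both arrays numbered 02, at 5.77 and 5.87, lay below all others. Its second probe set ranged only from 6.19 to 6.34 over the 6 arrays. ALDH1A1 (11.74, 11.17 and 11.91, adjusted p = 0.00882) and ALDH1A2 (9.31, 8.42 and 8.97, adjusted p = 0.0365) were also lowest in the arrays numbered 02. The arrays numbered 03 were the highest in RDH5 (5.70, 6.21 and 6.67, adjusted p = 0.0194) and CYP27B1 (5.77, 5.89 and 6.48, adjusted p = 0.0171). They were also the highest in HOXD4, where the pair means of 8.85, 9.27 and 10.37 spanned 1.51 on the log2 scale (adjusted p = 0.00377). The ALDH1A2 call was lost without CD44-negative array 02 (0.0836).

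**Figure D5:**
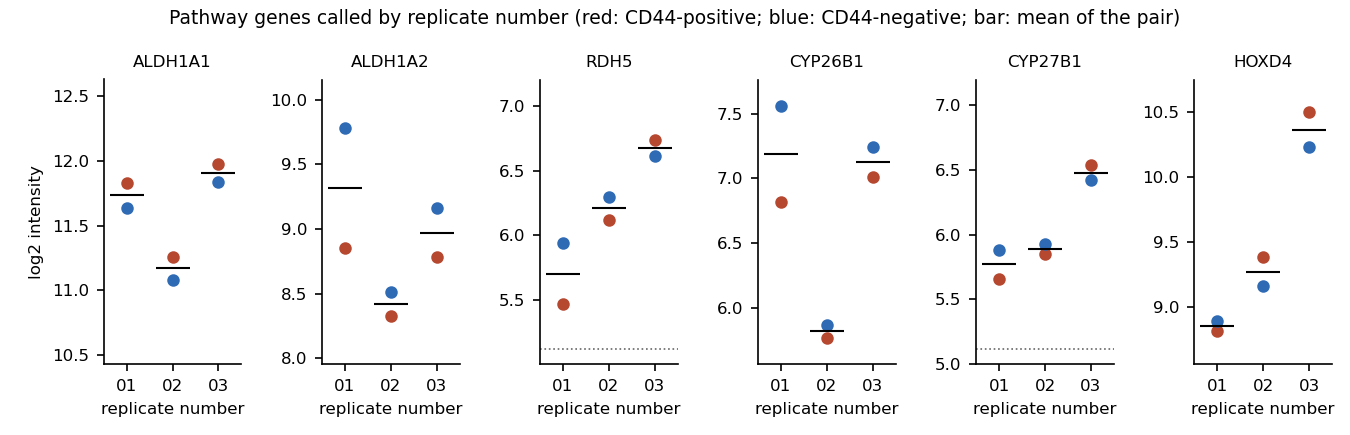
Log2 intensity by replicate number of the 6 other pathway genes that the F test called. Red points are CD44-positive and blue points CD44-negative arrays, black bars the mean of each pair, the dotted line, where it falls in a panel's range, is the dim limit of 5.12, and every panel spans the same range. CYP26B1, ALDH1A1 and ALDH1A2 are lowest in the arrays numbered 02, and HOXD4 spans 1.51 between pair means.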

How the data were processed

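RNA of 6 samples was measured on 1 Affymetrix array each. The authors deposited linear intensity values to which RMA had been applied, per the submitters' processing notes. The version is not given in the sources used here. Log2 was taken with no pseudocount. RMA makes array distributions alike and compresses differences near background.

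The platform annotation named 1 gene for 41091 of 54675 probe sets, several for 1801 and none for 11721, and 41037 had a gene ID in RefSeq's table, which updated symbols. A gene was represented by its probe set with the highest mean, and genes under the 30th percentile were not tested. limma 3.58.1 (lmFit, eBayes, R 4.3.3) was run two-sided over 13842 genes with Benjamini-Hochberg adjustment at 0.05, after a check on simulated data. Intervals are 95% and come from this model. Figures used matplotlib 3.10.9.

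Deviations from the group means correlated at 0.465, 0.689 and 0.626 between same-numbered arrays and from -0.496 to -0.107 between others, so the numbers were taken, from the data, to pair the arrays. The main model had no block. Intervals with the replicate block are printed for the genes called by replicate number and for RDH12. All other intervals are without the block, and they are wider where the numbers differ.

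The members and lists were chosen with earlier results of these data known. All members were named. Of each list, fixed genes and the 3 with the largest differences were named. The other genes named are the 3 nearest to CYP27C1 in pattern, the 3 tested neighbours on each side of CYP27C1 and CYP26A1, and those called by the number test.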

Additional observations from a re-analysis of the deposited data

How the results depend on the processing

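No pathway gene passed between the sorts under any of the alternatives: median centring, a second quantile normalization, no or a stricter dim limit (50th percentile), the mean of probe sets, every probe set, no _s_at or _x_at probe sets, a robust variance trend, the replicate block and leaving out each array. In all 97 of the 97 alternative values computed for the 7 tested members, the difference moved by less than the spread between replicates. Most of these could not have moved further. The dim limits, the variance trend and the block leave a difference unchanged, and leaving out 1 array shifts it by less than that spread. The count therefore does not show that the differences are steady. When 1 array was left out the difference ran from -0.15 to 0.16 for RDH10 and from -0.082 to 0.19 for DHRS3. It ran from -0.16 to 0.093 for CRABP2 and from -0.14 to 0.14 for RARB. Over all genes 0 passed; this was 2 with no dim limit, 5 with every probe set, 1 without _s_at and _x_at probe sets, 8 with the replicate block, and 0 to 1 when an array was left out, the 1 without CD44-positive array 03. With the block the count ran from 4 to 127 over the alternatives. Of the members 1 was called by replicate number; this was 2 with the variance trend and 0 to 3 when an array was left out, the 3 without CD44-negative array 03. Over all genes 1430 were called by number, 745 with no dim limit, 2983 with every probe set, 932 without _s_at and _x_at probe sets, 3149 with the variance trend, and 733 to 2236 when an array was left out. CD44-negative array 02 gave the lowest and CD44-negative array 03 the highest of these. The causes were not tested. The ALDH1A2 call by number was also lost with quantile normalization (0.0584), no dim limit (0.0611) and the mean of probe sets (0.0573). CYP26A1, LRAT and ALDH1A3 lay near background, where no difference could be sized.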
